A study of Mus musculus with 6 samples.

Results

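Interferon-stimulated genes are switched on when a cell senses interferon, a secreted alarm signal of infection and tissue stress. The set described here held 39 of them, picked out by symbol from a list of known target genes, out of 24421 gene symbols in the count table. All 39 were present and all 39 had enough counts to be tested, among 15988 tested genes. RNA-seq was performed on cultured cochleae of mice labelled wild type (WT) and taken at postnatal day (P) 2. There were 3 control and 3 neomycin samples, and each was a pool of 6 to 8 cochleae. The neomycin samples received 1 mM neomycin, an aminoglycoside that kills hair cells (HCs), for 6 h after 12 h of culture, and culture then went on for 5 days in medium with EdU at 10 μM, a label of DNA synthesis. The labels give the same treatment protocol for all 6 samples, and the control group was taken as untreated from its treatment label. The strain was not given in the sources used here. The stria vascularis anlage, modiolus and tectorial membrane had been removed, so the explants held HCs, supporting cells (SCs) and the cells around them. Total counts ran from 50471116 to 66068108 per sample, and the count of a single member in a sample from 20 to 21821.

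Type I interferons bind a receptor made of IFNAR1 and IFNAR2, whose kinases JAK1 and TYK2 phosphorylate transcription factors, STAT2 among them. These join IRF9, enter the nucleus and bind the interferon-stimulated response element (ISRE) in front of target genes. Interferon gamma acts through another receptor, and its target genes can carry the gamma-activated site (GAS). The products of the target genes sense viral RNA, block its translation, degrade it or hold virus particles back, and some of them damp the pathway again. Many of these genes are also transcribed at a low level without infection, in resident macrophages, endothelium and epithelium alike.

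The promoters of the set, whose members were picked as known interferon targets, were searched for the core letters of the ISRE and the GAS. Of the 39 members, 29 matched a RefSeq promoter of the GRCm38.p6 build, with 33 promoters in all. The ISRE core was searched as GAAANNGAAA on both strands, so that it reads TTTCNNTTTC when it lies on the other strand, in the 250 bases before each start. It was found in 13 of the 29 member genes (44.8%) and in 936 of 27025 genes with a promoter (3.46%). The GAS core, searched as TTCNNNGAA, was present in 8 of the 29 (27.6%) and in 2197 of 27025 genes (8.13%). The 2 motifs can overlap in sequence. A match describes the letters only and is not evidence of binding in these cells.

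The following stretches are those of 3 members that were higher after neomycin and hold the core (Isg15, Ifit3 and Gbp2), each beside a member with a like core that did not pass the test (Oas1a, Ifit1 and Gbp7). Capitals mark the ISRE core, and each is written 5′ to 3′ on the strand of its gene.
Isg15 (chr4:156200855-156200916, minus strand): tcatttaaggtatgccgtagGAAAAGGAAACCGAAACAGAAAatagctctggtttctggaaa
Oas1a (chr5:120907526-120907565, minus strand): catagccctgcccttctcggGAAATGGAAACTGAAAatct
Ifit3 (chr19:34583353-34583436, plus strand): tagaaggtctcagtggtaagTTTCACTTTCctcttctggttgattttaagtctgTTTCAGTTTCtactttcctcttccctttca
Ifit1 (chr19:34640765-34640833, plus strand): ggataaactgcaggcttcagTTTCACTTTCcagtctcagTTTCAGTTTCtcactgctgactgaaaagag
Gbp2 (chr3:142620594-142620623, plus strand): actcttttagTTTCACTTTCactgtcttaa
Gbp7 (chr3:142530263-142530312, plus strand): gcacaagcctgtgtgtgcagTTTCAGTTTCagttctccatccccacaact

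In Isg15 the 3 cores overlapped and began 78 to 66 bases before the start. Ifit3 carried separate cores that began 156 and 122 bases before the start, and its neighbour Ifit1 carried cores at 104 and 85 bases. In Gbp2 the single core began 59 bases before the start and in Gbp7 53 bases before it. These distances are from the RefSeq start, and for Gbp2 the GENCODE annotation begins the gene further upstream, so that there the core lies in an annotated exon.

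Neomycin cochleae held more RNA of a small subset of the set. By edgeR's quasi-likelihood test with Benjamini-Hochberg adjustment over all genes tested, 5 of the 39 members were higher with an adjusted p under 0.05 and a fold change over 1.5: Usp18, Ifit3, Zbp1, Gbp2 and Isg15. The same was true of 2.24% of all genes tested. In either direction the rule took 5 members and 8.84% of all genes. No member was lower by it (0 of 39, also 0 at an unadjusted p under 0.05 with the same fold, 0 by DESeq2 and 0 by limma-voom), against 6.60% of all genes. With the adjusted p alone, 9 members were higher and 1 was lower, where 12.9% of all genes were higher and 16.1% lower. That split was 7 to 3 when libraries were scaled by their totals alone, 9 to 0 with DESeq2's size factors or upper-quartile scaling, and 3 to 2 after a correction for exon length. The 3 neomycin samples did not overlap the 3 control samples for 12 members (43.5% of all genes), of which 10 were higher and 2 lower, while 21.0% of all genes did not overlap and were higher and 22.5% did not overlap and were lower. The median log2 fold change was 0.17 over the 39 members and -0.0041 over all genes tested.

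**Figure D1:**
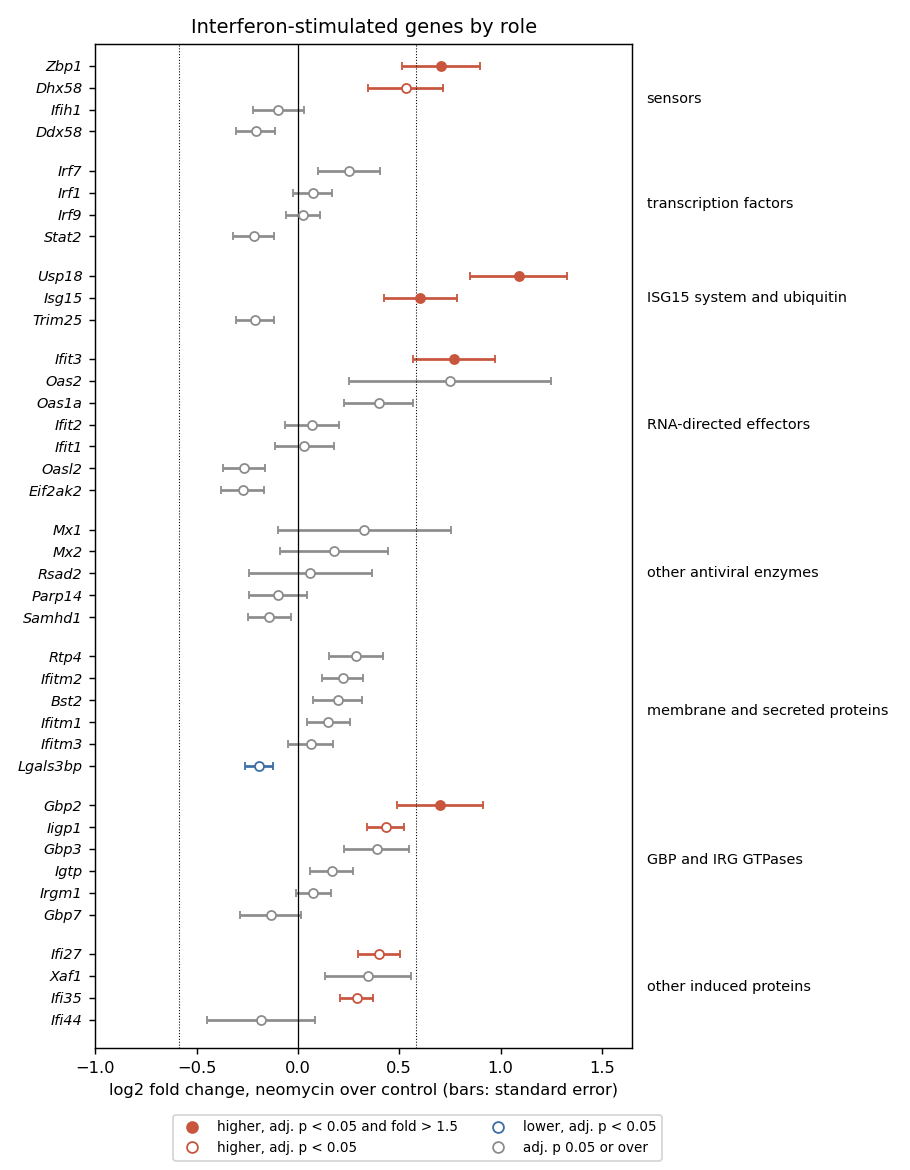
Log2 fold change of each of the 39 members in neomycin against control cochleae, grouped by role, with bars of 1 standard error (n = 3 per group); marks distinguish members by test result. Usp18 lies farthest to the right at 1.09, and the members that are lower stop at -0.27.

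Levels are given as CPM, that is, reads of the gene divided by TMM-adjusted library size, and different genes are compared per kilobase (kb) of exon. On that scale the set was dominated by small membrane proteins. Ifitm2 (486 CPM per kb, mean of 6 samples), Ifitm3 (362) and Ifitm1 (136) block the fusion of virus with the cell's membranes, and Bst2 (126), also known as tetherin, holds budding virus to the cell surface. The mitochondrial protein Ifi27 followed at 49.6. The 3 Ifitm genes made up between 73.5% and 77.5% of the summed per-kb level of the set in every sample. At the low end were Mx2 (0.379), Mx1 (0.234) and Oas2 (0.171).

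**Figure D2:**
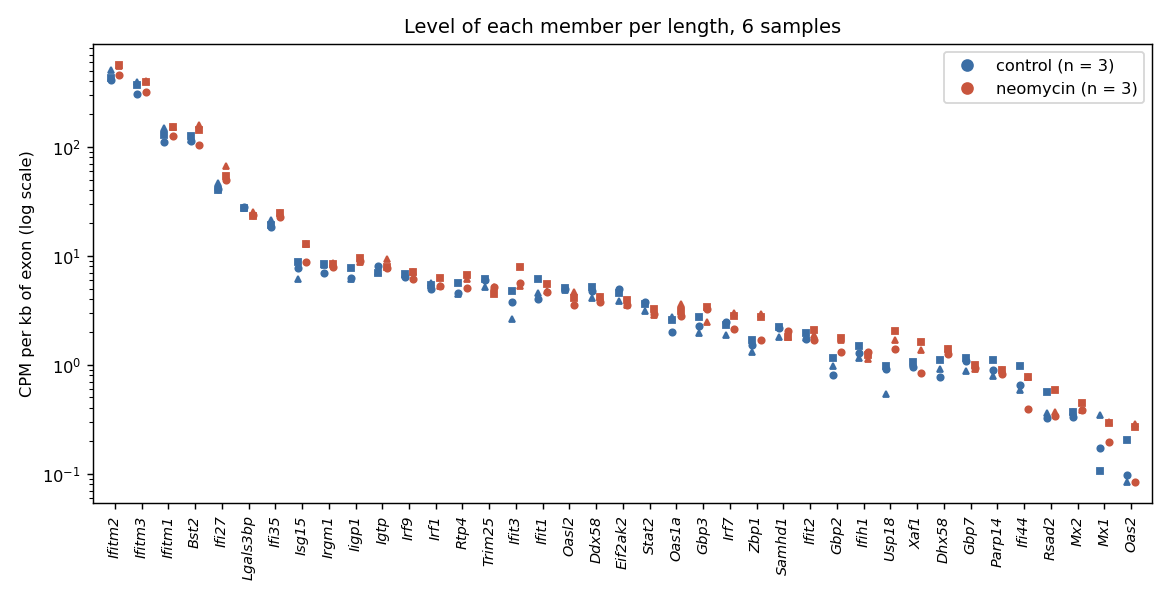
Level of each member in CPM per kb of exon on a log axis, with a mark for each of the 3 control and 3 neomycin samples. The order runs from Ifitm2 at a mean of 486 to Oas2 at 0.171, and the points of both groups lie close together next to the distance between genes.

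Of these 5 most abundant members, Ifi27 alone passed the test. Ifitm2 measured 268, 282 and 332 CPM in control samples 1, 2 and 3 and 301, 370 and 358 CPM in neomycin samples 1, 2 and 3. Control 3 thus lay above neomycin 1, and the log2 fold change was 0.22 (SE 0.10) with an edgeR adjusted p of 0.120. Ifitm3 stood at 207, 249 and 265 CPM in control and at 214, 267 and 273 CPM after neomycin, a log2 difference of 0.06 (SE 0.11) with an edgeR adjusted p of 0.700. The groups overlapped for both genes, and sample 1 was the lowest of its group in each case. Ifitm1 was at 121, 139 and 161 CPM in control and at 136, 165 and 167 CPM after neomycin (log2 0.15, SE 0.11, edgeR adjusted p = 0.318). Bst2 was at 102, 112 and 105 CPM in control and at 94.0, 128 and 143 CPM after neomycin (log2 0.20, SE 0.12, edgeR adjusted p = 0.246). For Bst2, neomycin 1 was below every control sample while the other two neomycin samples were above them. The Ifitm genes are neighbours of related sequence, so counting could have split their reads, and Ifitm2 also shares exon sequence with Gm45717. After the correction for exon length, the log2 fold changes of Ifitm2, Ifitm3, Ifitm1 and Bst2 turned to -0.17, -0.33, -0.16 and -0.17, of which that of Ifitm3 passed the test (edgeR adjusted p = 0.00441).

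Lgals3bp, a secreted glycoprotein, was the only member that was lower by the adjusted p. It measured 78.9, 78.4 and 77.5 CPM in control and 66.9, 66.5 and 72.1 CPM after neomycin. All neomycin samples were below all control samples, by a log2 fold change of -0.19 (SE 0.07) with an edgeR adjusted p of 0.0481. Its fold change was under the 1.5-fold threshold. The adjusted p was over 0.05 in 10 of 15 alternative settings, among them each of the 6 samples left out (0.0608 to 0.188). After the correction for exon length the log2 fold change was -0.29 (edgeR adjusted p = 0.00521). The last of the 6 membrane and secreted proteins, Rtp4, a chaperone of receptors, had a log2 fold change of 0.29 (SE 0.13, edgeR adjusted p = 0.123).

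ISG15 is a ubiquitin-like protein that is attached to other proteins in response to interferon, and USP18 takes it off again and also binds IFNAR2 to silence the receptor. Usp18 showed the largest log2 fold change of the set. It measured 2.52, 2.72 and 1.49 CPM in control and 3.92, 5.69 and 4.73 CPM after neomycin. Every neomycin sample exceeded every control sample, and the mean rose from 2.25 ± 0.658 to 4.78 ± 0.890 CPM (SD, n = 3 per group). That was 2.13-fold, or 1.09 (SE 0.24) on the log2 scale, with an edgeR adjusted p of 0.00602. Usp18 kept an adjusted p under 0.05 in all 15 alternative settings, with a log2 fold change of 0.88 to 1.25. The gene lies at chr6:121245906-121270917 on the plus strand of GRCm38, and an exon overlaps Gm44148 on the opposite strand, whose reads cannot be told apart if counting ignored strand.

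Isg15 (chr4:156199424-156200818, minus strand) was at 5.82, 6.63 and 4.66 CPM in control and at 6.59, 9.66 and 9.75 CPM after neomycin. Neomycin 1 fell just under control 2, so the groups touched, while neomycin 2 and 3 stood above all control samples. The mean rose from 5.71 ± 0.991 to 8.67 ± 1.8 CPM (SD, n = 3 per group), 1.52-fold, with a log2 fold change of 0.60 (SE 0.18) and an edgeR adjusted p of 0.0252. Isg15 is the shortest of the called genes, with 756 bases of exon. Its adjusted p was 0.0615 without control 3, 0.111 without neomycin 2, 0.0926 without neomycin 3, 0.0506 with libraries scaled by their totals and 0.434 (log2 0.21) after correction for exon length. Trim25, a ligase that attaches ubiquitin or ISG15 and acts on RIG-I, had a log2 fold change of -0.21 (SE 0.09, edgeR adjusted p = 0.112).

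**Figure D3:**
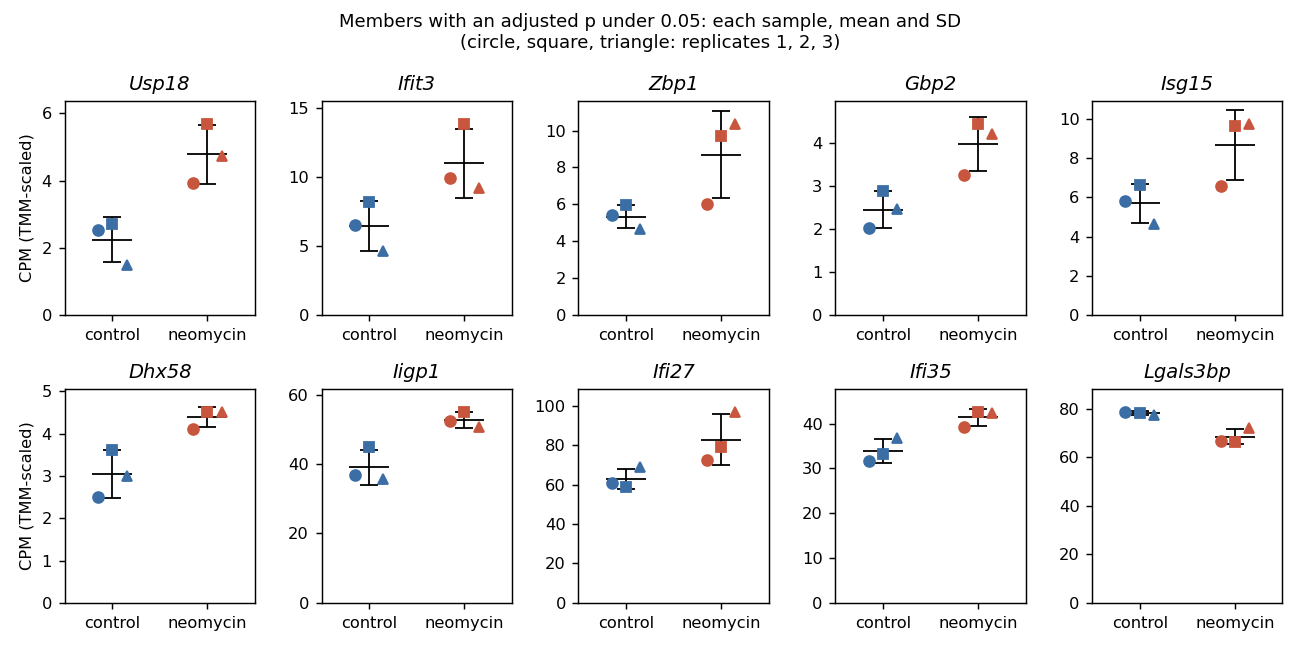
CPM in each of the 3 control and 3 neomycin samples for the 10 members with an adjusted p under 0.05, 1 panel a gene, with lines for the group mean and bars for the SD. The groups are apart in 9 of the 10 panels, and in Isg15 control 2 (6.63) lies just above neomycin 1 (6.59).

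Among the sensors, Zbp1 and Dhx58 were higher by the adjusted p, as were 12.9% of all genes. The viral RNA receptors Ddx58 and Ifih1 did not pass the test. Zbp1, a receptor of Z-form nucleic acid that can start cell death (chr2:173206612-173218923, minus strand), was at 5.40, 5.94 and 4.66 CPM in control. After neomycin it was at 6.01, 9.73 and 10.4 CPM. Neomycin 1 was barely above the highest control, and the other neomycin samples were well above it. The mean rose from 5.34 ± 0.643 to 8.70 ± 2.36 CPM (SD, n = 3 per group), 1.63-fold, at a log2 fold change of 0.71 (SE 0.19, edgeR adjusted p = 0.0172). The adjusted p was 0.0823 without neomycin 2 and 0.0748 without neomycin 3.

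Dhx58 encodes LGP2, a helicase that tunes the sensors RIG-I and MDA5. It was at 2.51, 3.62 and 3.01 CPM in control and at 4.12, 4.52 and 4.52 CPM after neomycin, without overlap. Its log2 fold change of 0.53 (SE 0.19) had an edgeR adjusted p of 0.0492, and 8 of 15 alternative settings left it over 0.05, among them every sample left out but control 2 (0.0613 to 0.152). An antisense gene, Dhx58os, overlaps it on the opposite strand. Ddx58, which encodes RIG-I, had a log2 fold change of -0.21 (SE 0.10, edgeR adjusted p = 0.127), and Ifih1, which encodes MDA5, of -0.10 (SE 0.12, edgeR adjusted p = 0.597).

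The transcription factors of the response did not pass the test. Of Irf7, Irf1, Irf9 and Stat2, 0 of 4 had an adjusted p under 0.05 by edgeR, also 0 at an unadjusted p under 0.05, 0 by DESeq2 and 0 by limma-voom. Irf7, the amplifier of interferon production, was at 9.23, 8.82 and 7.04 CPM in control and at 8.04, 10.6 and 11.2 CPM after neomycin, with a log2 fold change of 0.25 (SE 0.15, edgeR adjusted p = 0.238). Irf1, a factor of the interferon gamma response, had a log2 fold change of 0.07 (SE 0.10), Irf9 of 0.02 (SE 0.08) and Stat2 of -0.22 (SE 0.10). Irf9 shares an exon with Rnf31, and Irf7 overlaps Phrf1 on the opposite strand.

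Of the 7 effectors that act on RNA, Ifit3 was the 1 higher by the adjusted p, a share near the 12.9% of all genes. Its product binds foreign RNA together with that of Ifit1 and steadies the complex. Ifit3 was at 6.53, 8.22 and 4.61 CPM in control and at 9.90, 13.9 and 9.23 CPM after neomycin. All neomycin samples were above all control samples, and the mean rose from 6.45 ± 1.81 to 11.0 ± 2.50 CPM (SD, n = 3 per group). The fold change was 1.71, a log2 fold change of 0.77 (SE 0.20) with an edgeR adjusted p of 0.0146, which was 0.0895 without neomycin 2 and 0.0776 after the correction for exon length. Ifit1, which binds RNA whose cap lacks the host's methyl marks and whose promoter also carries ISRE cores, was at 10.6, 16.2 and 12.0 CPM in control and at 12.4, 14.6 and 12.5 CPM after neomycin. Its groups overlapped fully, with control 2 the highest of all samples, and its log2 fold change was 0.03 (SE 0.15, edgeR adjusted p = 0.895). Ifit2, the other family member in the set, had a log2 fold change of 0.07 (SE 0.13, edgeR adjusted p = 0.732). Whether Ifit3 differed from Ifit1 was not tested. Ifit3 lies at chr19:34583531-34588731 and has a near-identical copy, Ifit3b, so its counts are uncertain to that extent.

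The 2′-5′ oligoadenylate synthetases make the messenger that turns on RNase L. Oas1a was at 3.74, 4.81 and 5.12 CPM in control and at 5.33, 5.83 and 6.85 CPM after neomycin, without overlap but with an edgeR adjusted p of 0.0959 (log2 0.40, SE 0.17). Oas2 ranged from 0.374 to 0.901 CPM in control and from 0.377 to 1.28 CPM after neomycin, with the largest standard error of the set (log2 0.75, SE 0.50, edgeR adjusted p = 0.281). Oasl2, a related OAS-like protein, was at 31.2, 32.3 and 30.6 CPM in control and at 22.4, 26.1 and 29.9 CPM after neomycin. Its neomycin samples were all under its control samples, and its log2 fold change was -0.26 (SE 0.10, edgeR adjusted p = 0.0695). Eif2ak2, the kinase PKR that stops translation, had a log2 fold change of -0.27 (SE 0.11, edgeR adjusted p = 0.0739). Oasl2 and Eif2ak2 both passed the adjusted p as lower when libraries were scaled by their totals alone.

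Of the 5 other antiviral enzymes, 0 passed the adjusted p by edgeR, also 0 at an unadjusted p under 0.05, 0 by DESeq2 and 0 by limma-voom. Mx1 and Mx2, dynamin-like GTPases against influenza and other viruses, had log2 fold changes of 0.33 (SE 0.43) and 0.18 (SE 0.27). The annotation calls Mx2 a polymorphic pseudogene. Rsad2, which encodes viperin, was at 0.06 (SE 0.30), Parp14 at -0.10 (SE 0.14) and Samhd1, which destroys nucleotides needed for viral DNA, at -0.14 (SE 0.11).

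Guanylate-binding proteins (GBPs) and immunity-related GTPases (IRGs) attack the vacuoles of intracellular microbes and are classic targets of interferon gamma. Gbp2 (chr3:142620602-142638008, plus strand) was at 2.01, 2.87 and 2.45 CPM in control and at 3.26, 4.44 and 4.21 CPM after neomycin. The groups did not overlap, and the mean rose from 2.45 ± 0.431 to 3.97 ± 0.627 CPM (SD, n = 3 per group), 1.63-fold. The log2 fold change was 0.70 (SE 0.21) with an edgeR adjusted p of 0.0259, which was 0.0803 without control 1, 0.110 without neomycin 2, 0.0774 without neomycin 3 and 0.0559 after the correction for exon length. Iigp1, an IRG that loads onto the vacuole of parasites, was far more abundant, at 36.7, 44.8 and 35.6 CPM in control and 52.3, 55.1 and 50.7 CPM after neomycin. Its mean rose from 39.0 ± 5.01 to 52.7 ± 2.23 CPM (SD, n = 3 per group), and its log2 fold change of 0.43 (SE 0.09) had the smallest edgeR adjusted p of the set, 0.00460. Iigp1 stayed under 0.05 in all 15 alternative settings.

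The other members of these families did not pass. With Gbp2 and Iigp1, 2 of 6 were higher by the adjusted p, beside 12.9% of all genes. Gbp3 had a log2 fold change of 0.39 (SE 0.16, edgeR adjusted p = 0.0854), Igtp of 0.17 (SE 0.11), Irgm1 of 0.08 (SE 0.08) and Gbp7 of -0.14 (SE 0.15). Gbp2, Gbp3 and Gbp7 are neighbours of related sequence, and Igtp shares an exon with Irgm2, so reads may have been shared between them.

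Of the 4 other induced proteins, both Ifi27 and Ifi35 were higher by the adjusted p but under the 1.5-fold threshold. The share of all genes higher by the adjusted p was 12.9%. Ifi27, a mitochondrial protein linked to apoptosis, was at 60.6, 59.0 and 68.8 CPM in control and at 72.4, 79.0 and 97.0 CPM after neomycin (log2 0.40, SE 0.10, edgeR adjusted p = 0.0133). Ifi35, which binds NMI in the cytoplasm, was at 31.6, 33.3 and 36.8 CPM in control and at 39.3, 42.7 and 42.3 CPM after neomycin (log2 0.29, SE 0.08, edgeR adjusted p = 0.0196). Neither gene overlapped between groups, and after the correction for exon length the log2 fold changes were 0.14 and 0.07 with adjusted p of 0.222 and 0.461. The adjusted p of Ifi27 was also 0.0667 without control 2 and 0.0588 without neomycin 3, and that of Ifi35 was 0.0639 to 0.0907 without control 1, control 2, neomycin 2 or neomycin 3. Ifi35 also overlaps Gm11626 on the opposite strand. Xaf1, an antagonist of the apoptosis inhibitor XIAP, had a log2 fold change of 0.35 (SE 0.21, edgeR adjusted p = 0.236), and Ifi44 of -0.18 (SE 0.27, edgeR adjusted p = 0.640).

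Together, 29 of the 39 members did not pass the adjusted p. Their log2 fold changes ran from -0.27 to 0.75, 19 of them above 0 and 10 below, with a median standard error of 0.12. A further 6 of these had an unadjusted p under 0.05, of which 3 were higher and 3 lower. Among the 13 members with an ISRE core, 3 were higher by the adjusted p and the median log2 fold change was 0.20. Of the 16 with a promoter but no core in the window, 1 was higher and 1 lower, with a median of -0.04. Of the 10 without a promoter entry, 5 were higher, Usp18 and Zbp1 included. Of all tested genes 12.9% were higher and 16.1% lower. Exon length ran from 655 to 5926 bases among the 13 members with a core and from 678 to 9150 bases among the 16. The fold changes of all genes moved with length, which this split did not take into account. Whether the core had a part in the difference of the medians was not tested.

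The members were not evenly placed over the samples. Neomycin 1 was the lowest of the 3 neomycin samples for 28 of the 39 members, and control 2 was the highest control sample for 25. Averaged over the members, the log2 level against the mean of the control samples was -0.06, 0.13 and -0.07 in control samples 1, 2 and 3 and 0.00, 0.31 and 0.26 in neomycin samples 1, 2 and 3. Neomycin 1 thus lay between the control samples, below control 2. Without neomycin 1 there were 12 members that were higher by the adjusted p, without neomycin 2 there were 3 and without neomycin 3 there were 4. Calls over all genes, which also needed the fold threshold, moved too. They were 1413 with all samples and 1476, 1132 and 1207 without neomycin 1, 2 and 3.

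Exon length moved with the result. Over all tested genes with a known length, short genes tended to be higher after neomycin and long genes lower: the median log2 fold change was 0.14 over the 6888 genes with at most 3776 bases of exon, the median length of the members, and -0.10 over the 8971 longer genes. The 20 members at or under that length had a median of 0.29, with 19 of 20 higher, where 68.1% of all genes of that class were higher. The 19 longer members had a median of -0.10, with 9 of 19 higher, where 35.1% of all such genes were higher. After the trend on exon length was removed, the medians were 0.14 and 0.05, and Usp18 and Zbp1 were the members still called higher. Whether length itself had a part in the changes of the members was not tested.

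**Figure D4:**
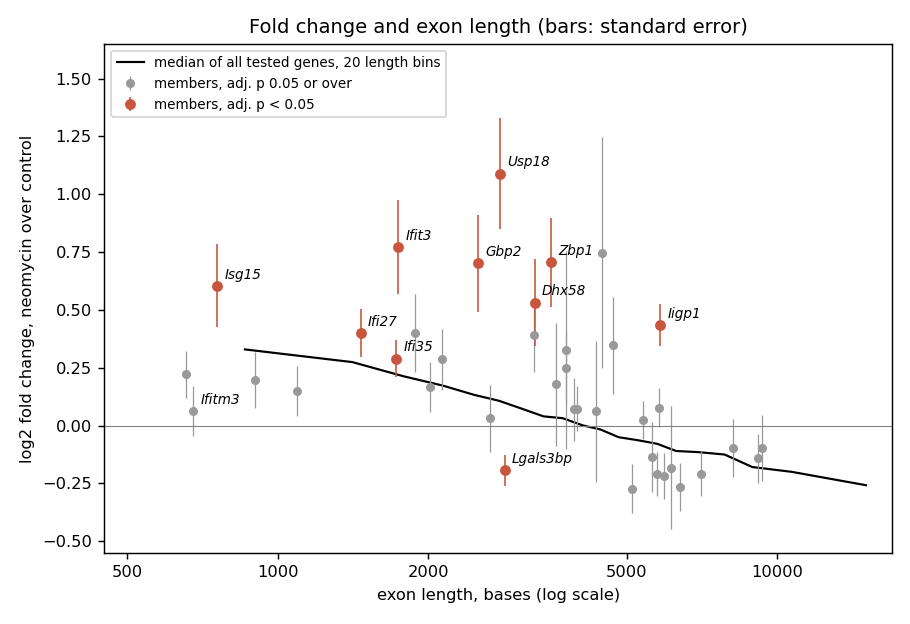
Log2 fold change of each member against its exon length in bases on a log axis, with bars of 1 standard error and the median of all genes tested in bins of length as a line. The line falls from 0.33 among the shortest genes to -0.26 among the longest, and Usp18, Zbp1, Ifit3 and Gbp2 lie above it, while Isg15 lies to the left of its start.

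Upstream of the members, none of 21 interferon genes had enough counts to be tested: 14 had no count in any sample, and the most seen was 7 counts, for Ifne in control 3. Of the 6 receptor genes, 0 passed the adjusted p by edgeR (2 at an unadjusted p under 0.05, 0 by DESeq2 and 0 by limma-voom after adjustment). Ifnar1 was at 83.3 ± 4.75 CPM in control and 81.5 ± 1.60 CPM after neomycin (SD, n = 3 per group), a log2 difference of -0.03 (SE 0.07). The log2 differences were 0.12 for Ifnar2, 0.07 for Ifngr1, -0.12 for Ifngr2, -0.18 for Ifnlr1 and -0.17 for Il10rb, with standard errors of 0.07 to 0.09.

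Of the 5 transducers, the kinase gene Tyk2 was lower, from 27.4 ± 1.18 to 22.2 ± 0.365 CPM (SD, n = 3 per group, log2 -0.31, SE 0.08, edgeR adjusted p = 0.0152). Of the 15 tested genes that lead to interferon production, Irf3, the factor that drives the interferon beta gene, was higher (log2 0.30, SE 0.08, edgeR adjusted p = 0.0144). In that list 5 were lower: Traf3 (log2 -0.53), Tmem173, which encodes STING (-0.45), Tlr4 (-0.42), Traf6 (-0.27) and Mavs, the adaptor of RIG-I and MDA5 (-0.24), with edgeR adjusted p of 0.00200 to 0.0438. Over the 35 tested genes of receptors, transducers, feedback inhibitors and induction, 1 was higher and 6 were lower, with a median log2 fold change of -0.11. Of all tested genes 12.9% were higher and 16.1% lower, so the share of lower genes was near that of the whole table, and the list's difference from the members was not tested.

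A further 53 interferon-induced genes outside the set were in the table, of which 48 were tested. In this list 4 were higher and 2 lower by the adjusted p, which were smaller shares than the 12.9% and 16.1% of all tested genes. A log2 fold change above 0 was measured for 37 of the 48, beside 7914 of all 15988 genes, and the median was 0.19, beside 0.17 for the members. Ifit3b, the copy of Ifit3, was at 1.25, 1.90 and 1.09 CPM in control and at 2.03, 2.95 and 2.87 CPM after neomycin (log2 0.90, SE 0.28, edgeR adjusted p = 0.0299). Ifi47, an IRG, was at 3.17, 4.01 and 2.74 CPM in control and at 3.82, 5.81 and 6.16 CPM after neomycin (log2 0.67, SE 0.21, edgeR adjusted p = 0.0336). In both genes neomycin 1 was again the lowest of its group, and in Ifi47 it was below control 2. The other genes past the adjusted p were Psmb10, a subunit of the immunoproteasome (log2 0.46), Gbp8 (0.48), Znfx1 (-0.39) and Ifitm10 (-0.47).

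The RNA levels of cell type markers differed between the groups at the same time. In bulk samples, fewer cells of a type and less RNA per cell cannot be told apart. By the adjusted p, 12.9% of all tested genes were higher and 16.1% lower. Of 15 HC markers 13 were lower, and their summed level was 837 to 949 CPM in control and 296 to 359 CPM after neomycin. Of 15 macrophage markers, 7 were higher and 1 lower by the adjusted p, with none at 0. Their summed level was 138 to 167 CPM in control and 177 to 218 CPM after neomycin, where neomycin 1 was the lowest at 177. The log2 fold changes of the 15 macrophage markers ran from -0.58 to 0.93, with 12 above 0, 3 below and a median of 0.48. Among the higher ones, picked after their values were seen, Tyrobp, an adaptor of myeloid receptors, had a log2 fold change of 0.93 (edgeR adjusted p = 0.000792). Cd68, a lysosomal protein of macrophages, had one of 0.59 (edgeR adjusted p = 0.00308). Of 15 endothelial markers 9 were lower by the adjusted p, while 3 had a log2 fold change above 0. The median was -1.31, with -2.71 for the adhesion molecule Pecam1 and, as the lowest, -3.40 for the junction protein Cldn5. Their mean log2 level against the control mean was -0.22 to 0.12 in control and -1.52 to -1.15 after neomycin. Their summed level, in which abundant genes weigh most, moved less, from 373 to 421 CPM in control to 353 to 404 CPM after neomycin. Lymphocyte markers were near 0, with a summed level of 0.516 to 1.17 CPM in control and 0.678 to 1.43 CPM after neomycin, and Cd3d, Ms4a1 and Ncr1 had no count in any sample. The part of these shifts in the levels of the members was not tested.

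**Figure D5:**
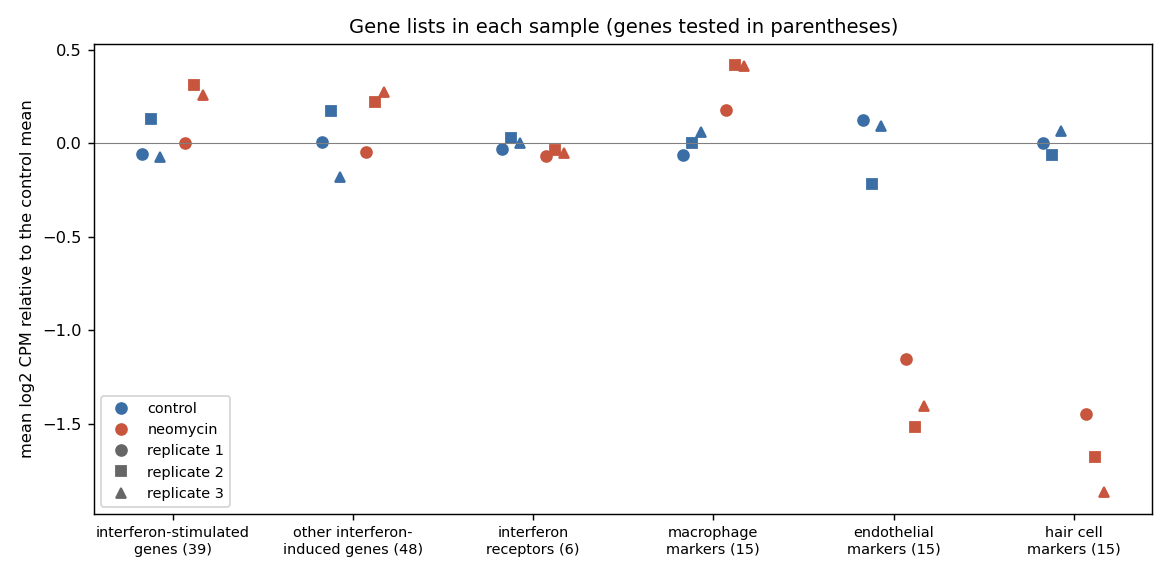
Mean log2 level of the members and of other gene lists in each of the 3 control and 3 neomycin samples, relative to the control mean. The members reach 0.00 to 0.31 after neomycin against -0.07 to 0.13 in control, and macrophage markers 0.18 to 0.42 against -0.06 to 0.06.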

How the data were processed

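RNA-seq was performed on 3 control and 3 neomycin pools of cochleae. The authors called bases with CASAVA 1.8 and trimmed reads with Trimmomatic 0.23 (versions from the submitters' processing notes), aligned them to mm10 with Hisat2 and counted them per gene with HTSeq. They deposited counts, whole numbers of reads per symbol without normalization. The strand setting, the handling of reads with several matches and the annotation's date were not given in the sources used here.

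From these counts, libraries were TMM-scaled, genes filtered with filterByExpr and the groups compared with edgeR 4.0.16 (quasi-likelihood, R 4.3.3), with Benjamini-Hochberg adjustment over 15988 genes. The study used DESeq2, which was run as an alternative (1.42.0), as was limma-voom (3.58.1). A call needed an adjusted p under 0.05 and a fold change over 1.5. The standard error was the size of the log2 fold change over the square root of F. Other alternatives were 3 scalings, 2 filters, a fit blocked on replicate number, leaving out every sample once, a fold threshold of 2, and removal of each sample's trend on exon length (lowess, span 0.3). In simulated counts of 15831 genes, 187 of 200 genes changed 2-fold were recovered, with 10 false calls. Recovery of smaller changes, which were those of every member but Usp18, was not simulated.

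The labels call the 3 samples of a group replicates without naming separate litters, so p-values measure the spread between these pools. Replicates differed beyond sampling noise. Positions and exon lengths come from the GENCODE annotation of GRCm38 (mm10), promoters from RefSeq. Members and lists were chosen with earlier results of these data known. Every sample's value is given for members past the adjusted p and for the 5 most abundant per kb. Of the other pathway lists, the receptors and the genes past both thresholds were named by rule, and all others after their values were seen. The marker lists were HCs, SCs, macrophages, endothelium, lymphocytes, fibroblasts, Schwann cells and neurons. Figures were drawn with matplotlib 3.10.9.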

Additional observations from a re-analysis of the deposited data

How the results depend on the processing

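The 5 members called higher stayed between 4 and 5 under every other test, scaling, filter and the block, and were 2 after the correction for exon length, 1 with a fold over 2, and 1 to 6 with a sample left out. Without neomycin 2 only Usp18 was called, without neomycin 3 Usp18 and Ifit3, and without control 2 Dhx58 was added. Members higher by the adjusted p (9) were 12 under the block, 8 without a filter and 7 with library totals. They were 3 after the length correction and 3 to 12 with a sample left out. The 1 lower member became 0 by DESeq2, with DESeq2's size factors, with upper-quartile scaling and without a filter, 2 after the length correction, 3 with library totals, 3 under the block and 0 to 3 with a sample left out. Other interferon-induced genes (4 higher, 2 lower) gave 7 higher under the block and 3 higher with library totals. They gave 6 higher and 1 lower with upper-quartile scaling, and 1 lower after the length correction. With a sample left out, 1 to 8 were higher and 0 to 2 lower. Pathway genes (1 higher, 6 lower) gave 2 higher and 9 lower under the block, and 3 higher and 4 lower after the length correction. They gave 10 lower with library totals and 5 lower with limma-voom or upper-quartile scaling. With a sample left out, 0 to 2 were higher and 1 to 5 lower. The members' median log2 fold change was 0.07 to 0.19 over these settings, or 0.11 to 0.21 with a sample left out. After the length correction Ifitm3 reversed, to -0.33 (edgeR adjusted p = 0.00441), and the uncalled Ifitm2, Ifitm1 and Bst2 turned to -0.17, -0.16 and -0.17. Library totals moved the median of all genes to -0.07. The cause of these moves was not tested. Nothing in the labels says that replicate numbers pair the samples. Deviations of same-numbered samples correlated at 0.17, 0.03 and 0.09 over all genes, with control 2 closest to neomycin 3, and at 0.30, 0.48 and 0.12 over the members, where each sample was closest to its own number, a hint from the data. With the replicate block, 1465 genes were called instead of 1413, and the members that newly passed the adjusted p were Gbp3 (0.0213), Ifitm2 (0.0239) and Oas1a (0.0471) as higher and Oasl2 (0.0324) and Eif2ak2 (0.0373) as lower. With 3 samples a group and members as low as 20 counts, small changes of the rarer members could not be resolved.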

Other observations

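NF-kB targets are inflammatory genes that can be induced beside the interferon response. Of 12 tested genes, 0 were higher by edgeR's adjusted p (4 passed an unadjusted p under 0.05 in either direction, 1 was higher by DESeq2 and 0 by limma-voom) and 2 were lower, the deubiquitinase gene Tnfaip3 (log2 -0.44, edgeR adjusted p = 0.00377) and the subunit gene Nfkb2 (log2 -0.27, edgeR adjusted p = 0.0334). Cxcl10, a chemokine induced by interferon, had a log2 fold change of 0.67 (SE 0.27, edgeR adjusted p = 0.0765). Of the 9 feedback inhibitors, Socs1 had a log2 fold change of 0.36 (SE 0.18) and Socs3 of -0.31 (SE 0.19), and 0 of 9 passed the adjusted p by edgeR (1 at an unadjusted p under 0.05, 0 by DESeq2 and 0 by limma-voom after adjustment). In the SC list, 4 of 15 markers were higher and 4 lower by the adjusted p, beside 12.9% and 16.1% of all genes. Their summed levels were 3267 to 3673 CPM in control and 4065 to 4231 CPM after neomycin. Their mean log2 level against the control mean did not rise, at -0.02 to 0.03 in control and -0.10 to 0.02 after neomycin. Of 10 genes each, 1 was higher and 4 lower for fibroblasts, 1 and 2 for Schwann cells, and 1 and 4 for neurons.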
